A study of Mus musculus with 6 samples.

Results

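Fatty acid oxidation and the PPAR receptors were examined through 10 genes in the mouse BV2 microglial line, which is immortalized. The genes were picked by symbol from the count table, which lists 46095 gene symbols, and all 10 were found. They comprise Cpt1a and Cpt2 of the carnitine shuttle, the mitochondrial beta-oxidation enzymes Acadvl, Acadl, Acadm, Hadha and Hadhb, the nuclear receptors Pparg and Ppard, and the lipid droplet gene Plin2. RNA was sequenced from 3 control libraries (CON group) and from 3 libraries of BV2 cells that received 1 μg/mL sTREM-1 recombinant protein for 6 h (sTREM-1 group). The study describes the control cells as untreated, and no group received another protein. The labels name no vehicle or genetic change for either group. The cells were grown in wells of a six-well plate, and the labels do not say whether the libraries of a group came from separate cultures, so that the p-values cover only the spread between these libraries. The number of replicates in the methods differs from that in the labels and the count table, which were followed.

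Mitochondria burn fatty acids in steps. Long-chain acyl-CoA is passed into the organelle as acylcarnitine by CPT1 and CPT2, and is then shortened cycle by cycle by an acyl-CoA dehydrogenase and by the trifunctional protein that Hadha and Hadhb encode. PPARs are fatty acid sensing receptors that pair with RXR and bind DNA at repeats of the half-site AGGTCA, and perilipin 2, the product of Plin2, coats the lipid droplets in which macrophages and microglia store neutral lipid.

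Compared with the CON group, Plin2 fell after sTREM-1, with a fold of 0.795, and it was the only one of the 10 genes that passed the test in every fit. Acadvl also passed the test with a lower level, but its counts were few and its groups overlapped. The other 8 genes, among them the 6 better expressed mitochondrial enzymes, did not pass the test. With edgeR's quasi-likelihood test and an adjusted p-value under 0.05 across all tested genes, 0 of the 10 were higher and 2 were lower, against 16.5% higher and 14.1% lower, or 30.5% in either direction, of the 14120 genes tested. At an unadjusted p-value under 0.05, Acadm was the only other gene, and DESeq2, which gave no adjusted p for Pparg and Ppard, called none of the other 8 higher. The 2 lower genes also changed at least 1.2-fold, which 10.7% of all tested genes did while passing the test. The 2 groups of libraries did not overlap for Acadm and Plin2, that is for 2 of the 10 genes, against 40.7% of all tested genes. The median log2 fold change of the 10 was 0.03, and that of all tested genes was -0.002.

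The library totals ran from 40070633 to 45877107 counts. Across the tested genes, libraries of a group were closer to each other than to those of the other group. On single genes CON replicate 3 stood apart, with 216 Acadvl counts against 80 and 46 in CON replicates 1 and 2. For the astrocyte marker Gja1 it had 32 counts against 10 and 9, beside 22, 18 and 31 after sTREM-1. Of 11 microglia markers, 10 had at least 10 counts in every library, whereas Aif1 was listed at 0 in all 6. Their summed level ran from 2520 to 2557 CPM (read counts scaled to a common library size by TMM) in the CON group and from 2781 to 2846 CPM after sTREM-1. The sum hides differences between markers. In unscaled counts, Csf1r had 21212 to 21406 in the CON libraries and 30545 to 34670 after sTREM-1. Cd68 had 24307 to 25164 and 24330 to 26263. Cx3cr1, P2ry12 and Tmem119 had few counts, from 23 to 93 per library. Of the 5 adipocyte markers, Lep, Cidec and Cfd were at 0 and the summed level was at most 0.0504 CPM in any library. All 4 hepatocyte markers were at 0. The 6 neuron markers summed to at most 0.277 CPM and the 5 astrocyte markers to at most 1.26 CPM, with Rbfox3, Aqp4 and Aldh1l1 at 0. The 5 oligodendrocyte markers summed to between 7.17 and 7.84 CPM in the CON group and between 5.63 and 6.70 CPM after sTREM-1, with Mog at 0. The part of the microglia and oligodendrocyte marker shifts in the results was not tested.

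Levels of different genes were compared as CPM per kb of exon. The exon lengths come from GENCODE M21, whereas the annotation behind the counts is not given. Orders and ratios of genes thus also rest on these lengths, which the spread between libraries does not measure. In the CON group, Plin2 stood at 706 CPM per kb (694 to 722 in the 3 libraries). Its mean over all 6 libraries placed it 51st among 12813 tested genes with a known exon length. In the CON group, Hadha followed with 44.8 ± 0.698, Acadl with 38.0 ± 1.13 and Acadm with 29.7 ± 0.671 CPM per kb (SD, n = 3 each). Hadhb had 13.5 ± 0.204, Cpt2 10.5 ± 0.221 and Cpt1a 6.01 ± 0.295 CPM per kb (SD, n = 3 each). By their means over all 6 libraries, the mitochondrial enzymes other than Acadvl ranked from 1561st (Hadha) to 7780th (Cpt1a) of the 12813 genes. Neighbours in this order did not overlap between CON libraries. At the low end, Acadvl had 1.29 ± 1.02, Ppard 0.171 ± 0.0755 and Pparg 0.0823 ± 0.0413 CPM per kb (SD, n = 3 each). Ppard and Pparg overlapped in the CON group, so that their order was not larger than their spread. After sTREM-1 the 10 genes kept the same order, and no neighbours overlapped. Ppard and Pparg were barely apart, at 0.143 and 0.138 CPM per kb in sTREM-1 replicate 2, from 20 and 14 counts. Their order was thus not settled after sTREM-1 either.

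**Figure D1:**
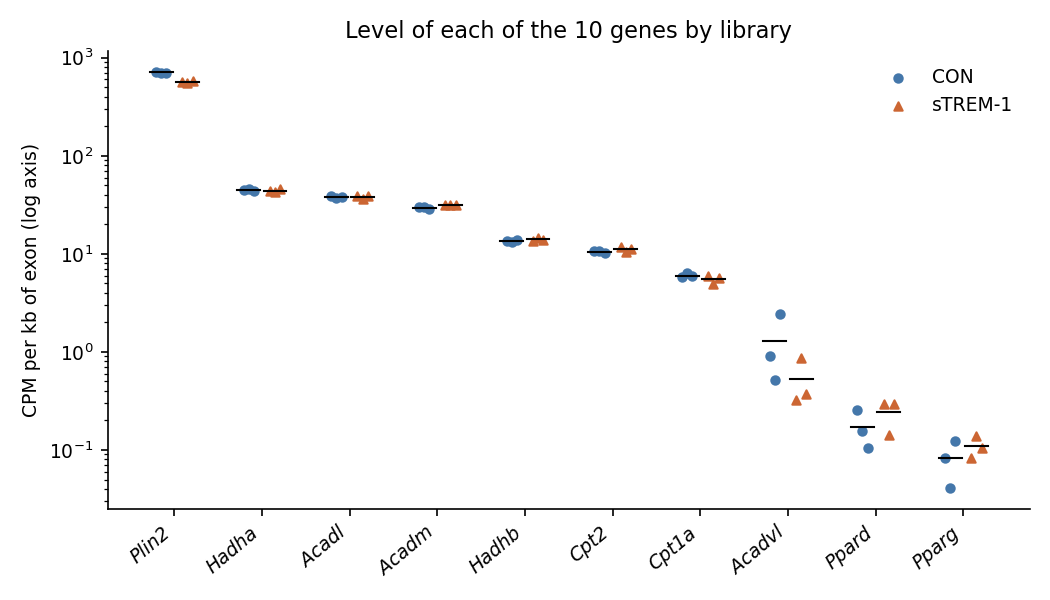
Level of each of the 10 genes in CPM per kb of exon on a log axis, with 1 point per library (circles CON, triangles sTREM-1) and a bar at the mean of each group of 3. Plin2 lies far above the others, the enzymes other than Acadvl lie in between, down to 4.94, and Acadvl, Ppard and Pparg lie below 2.5 with wide scatter.

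Plin2 lies on chromosome 4 of GRCm38 from 86648386 to 86670060, on the minus strand. The 250 bases before its RefSeq start (GRCm38.p6, chr4:86670060-86670309, minus strand) are shown because Plin2 passed the test in every fit and is a known PPAR target. The capitals mark the single match to the half-site AGGTCA, read here on the opposite strand as TGACCT, whose first base lies 218 bases before the start.
Plin2: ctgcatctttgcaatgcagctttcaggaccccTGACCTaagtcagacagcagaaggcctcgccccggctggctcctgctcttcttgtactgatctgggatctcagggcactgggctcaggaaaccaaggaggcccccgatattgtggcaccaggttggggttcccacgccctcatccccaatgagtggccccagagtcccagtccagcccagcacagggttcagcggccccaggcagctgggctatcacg

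Windows reaching from 250 bases before to 50 bases after a RefSeq start were available for all 10 genes, with 12 windows in all because Pparg has several starts. The full PPAR motif, AGGTCA repeated in the same direction with any 1 base between, was in none of these windows on either strand, and 0.0396% of all 32851 windows of this length hold it. The half-site AGGTCA alone, which is part of that motif, was present for 5 of the 10 genes (Cpt1a, Acadm, Acadvl, Pparg and Plin2), whereas 18.1% of all genes with a window hold it. A letter match in these short windows describes the sequence only and marks no binding site.

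Plin2 had 1363, 1328 and 1311 CPM in CON replicates 1, 2 and 3, and 1055, 1036 and 1090 CPM in sTREM-1 replicates 1, 2 and 3. The highest sTREM-1 value was thus under the lowest CON value, and the libraries within a group stayed close together. The CON mean of 1334 ± 26.5 CPM (SD, n = 3) dropped to 1060 ± 27.5 CPM (SD, n = 3), which is -0.33 ± 0.02 (SE) as log2 fold change with an adjusted p of 3.4e-13 by edgeR. The 95% interval of the fold reached from 0.771 to 0.820. In bulk RNA, fewer expressing cells and less RNA per cell cannot be told apart. Plin3, a perilipin found on droplets and in the cytosol, had a log2 fold change of 0.07 and did not pass (edgeR adjusted p = 0.074). In CPM per kb, the ratio of Plin2 to Plin3 was 15.4 ± 0.0256 (SD, n = 3) in the CON group and 11.7 ± 0.443 (SD, n = 3) after sTREM-1.

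Acadvl, which encodes the dehydrogenase for very long chains, was counted 80, 46 and 216 times in CON replicates 1, 2 and 3, and 32, 81 and 32 times in sTREM-1 replicates 1, 2 and 3. CON replicate 3 was high, and sTREM-1 replicate 2 lay above CON replicate 2, so that the groups overlapped. The CON libraries had 2.79 ± 2.21 CPM and the sTREM-1 libraries 1.14 ± 0.664 CPM (SD, n = 3 each), which is -1.29 ± 0.38 (SE) as log2 fold change with an adjusted p of 0.0088 by edgeR. Between CON libraries the highest CPM was 4.72 times the lowest, and 0.510% of all tested genes had a coefficient of variation in the CON group as large as the 79.1% of Acadvl. Without CON replicate 3 the log2 fold change was -0.44 with an adjusted p of 0.450 (edgeR), without sTREM-1 replicate 1 or 3 the adjusted p was 0.0546 or 0.0591 (edgeR), and DESeq2 gave an adjusted p of 0.203. The gene lies on chromosome 11 from 70010183 to 70015411 on the minus strand of GRCm38, and 976 bases, or 45.0%, of its exons are shared with exons of Dvl2, a Wnt signaling gene on the opposite strand. Dvl2 had 147 to 214 counts per library. Whether counting used the strand is not stated, and the part of this overlap in the low and uneven counts of Acadvl was not tested.

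**Figure D2:**
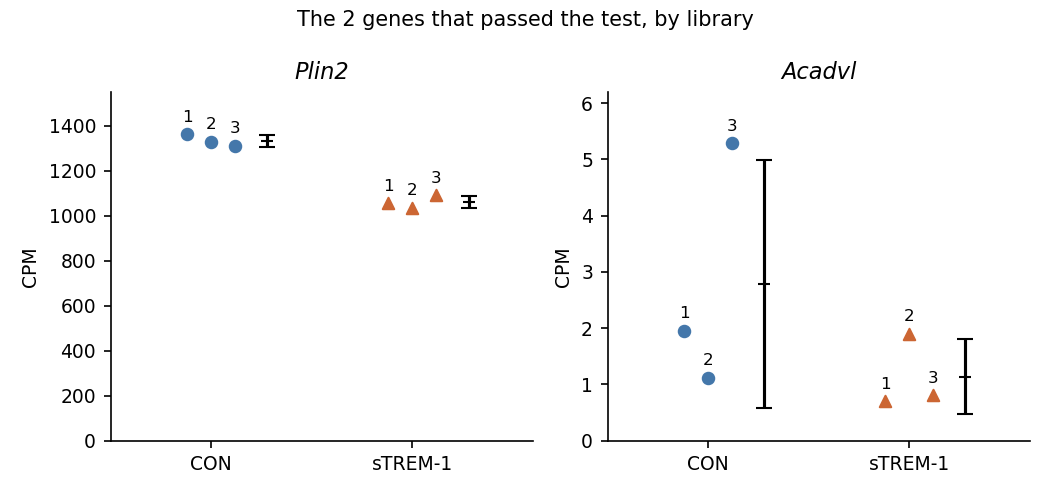
CPM of Plin2 (left) and Acadvl (right) in each library, numbered by replicate, with the mean and SD of each group of 3 beside the points on axes that start at 0. The Plin2 groups are separate (1311 to 1363 against 1036 to 1090 CPM), whereas the Acadvl groups overlap and CON replicate 3 stands at 5.29 CPM.

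Cpt1a encodes the transferase of the outer mitochondrial membrane, the step that controls entry of long-chain fatty acids and that malonyl-CoA inhibits. It is located on chromosome 19 from 3322334 to 3385733. Its level was 24.9, 27.4 and 25.5 CPM in CON replicates 1, 2 and 3, and 25.4, 21.3 and 24.3 CPM in sTREM-1 replicates 1, 2 and 3. sTREM-1 replicate 2 was low while replicate 1 lay among the CON libraries. Its log2 fold change of -0.13 ± 0.07 (SE) did not pass (edgeR adjusted p = 0.15), and the 95% interval of the fold ran from 0.833 to 1.00. Cpt2, the inner membrane partner on chromosome 4 from 107903981 to 107923610, was counted 1037, 1039 and 997 times in CON replicates 1, 2 and 3, and 1264, 1066 and 1055 times in sTREM-1 replicates 1, 2 and 3. Scaled for library size these overlapped, with a fold of 1.06 (interval 0.971 to 1.15, edgeR adjusted p = 0.35).

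The dehydrogenases for shorter chains were close to their CON levels. Acadm, for medium chains, lies on chromosome 3 from 153922357 to 153944632, and had 61.6, 61.4 and 59.2 CPM in the CON libraries against 65.1, 63.9 and 64.4 CPM after sTREM-1. All sTREM-1 libraries lay above all CON libraries, but the fold of 1.06 (interval 1.01 to 1.12 before adjustment) had an edgeR adjusted p of 0.092 and did not pass. Acadl, for long chains, on chromosome 1 from 66830839 to 66863277, had 74.5, 70.3 and 73.5 CPM in the CON libraries and 73.7, 70.0 and 73.7 CPM in the sTREM-1 libraries. Its groups overlapped almost fully, and the fold was 0.996 with an interval from 0.944 to 1.05 (edgeR adjusted p = 0.94), so that a change beyond about 6% in either direction lay outside the interval.

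Hadha and Hadhb encode the α and β subunits of the trifunctional protein and lie head to head on chromosome 5, Hadha on the minus strand from 30118304 to 30155162 and Hadhb on the plus strand from 30155248 to 30184593. Their RefSeq starts are 272 bases apart, and the 250 bases before the start of Hadha (GRCm38.p6, chr5:30154981-30155230, minus strand) fall between these RefSeq starts, so that they are shown. The GENCODE span of Hadha given above starts further upstream than RefSeq and reaches into this window. No half-site AGGTCA, and hence no capital, occurs in it.
Hadha: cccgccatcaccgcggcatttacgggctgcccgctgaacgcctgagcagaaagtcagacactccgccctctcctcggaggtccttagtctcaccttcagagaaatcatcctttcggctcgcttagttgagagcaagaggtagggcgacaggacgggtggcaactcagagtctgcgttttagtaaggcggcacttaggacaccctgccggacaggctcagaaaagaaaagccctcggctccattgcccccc

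Hadha had 181, 182 and 177 CPM in the CON libraries and 174, 173 and 185 CPM in the sTREM-1 libraries, with sTREM-1 replicate 3 the highest of all 6. The fold was 0.985 with an interval from 0.945 to 1.03 (edgeR adjusted p = 0.65). Hadhb had 28.2, 27.7 and 28.5 CPM in the CON libraries and 28.4, 30.4 and 29.1 CPM in the sTREM-1 libraries. These overlapped through sTREM-1 replicate 1, with a fold of 1.04 and an interval from 0.964 to 1.12 (edgeR adjusted p = 0.47). Per kb of exon, Hadha stood above Hadhb by a ratio of 3.31 ± 0.100 (SD, n = 3) in the CON group and 3.14 ± 0.167 (SD, n = 3) after sTREM-1, and the ratios of the groups overlapped. Of the exon bases of Hadha, 1.87% are shared with its neighbour Garem2.

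Across the 6 mitochondrial enzymes other than Acadvl, the median size of the change was 4.85%, and the 95% intervals of their folds together reached from 0.833 to 1.15. A larger change of any of these enzymes lay outside its interval, although the intervals do not show that the levels were equal.

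The receptors had few counts in every library. Pparg, the macrophage and adipocyte PPAR on chromosome 6 from 115360951 to 115490399, was counted 8, 4 and 12 times in the CON group and 9, 14 and 10 times in the sTREM-1 group. Ppard, the broadly expressed PPAR on chromosome 17 from 28232700 to 28301474, was counted 34, 21 and 14 times in the CON group and 44, 20 and 38 times in the sTREM-1 group. Both genes overlapped between the groups. The fold was 1.32 for Pparg with an interval from 0.578 to 3.00 (edgeR adjusted p = 0.67). For Ppard the fold was 1.42 with an interval from 0.801 to 2.50 (edgeR adjusted p = 0.39). Changes of moderate size thus lay inside both intervals. The third receptor, Ppara, which drives oxidation in liver, was listed at 0 in all 6 libraries, and a count of 0 allows up to 0.0749 CPM in the smallest library (3 counts, counting error only) if its reads could be counted. Whether they could was not tested for Ppara or for the other genes listed at 0, among them the microglia marker Aif1.

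**Figure D3:**
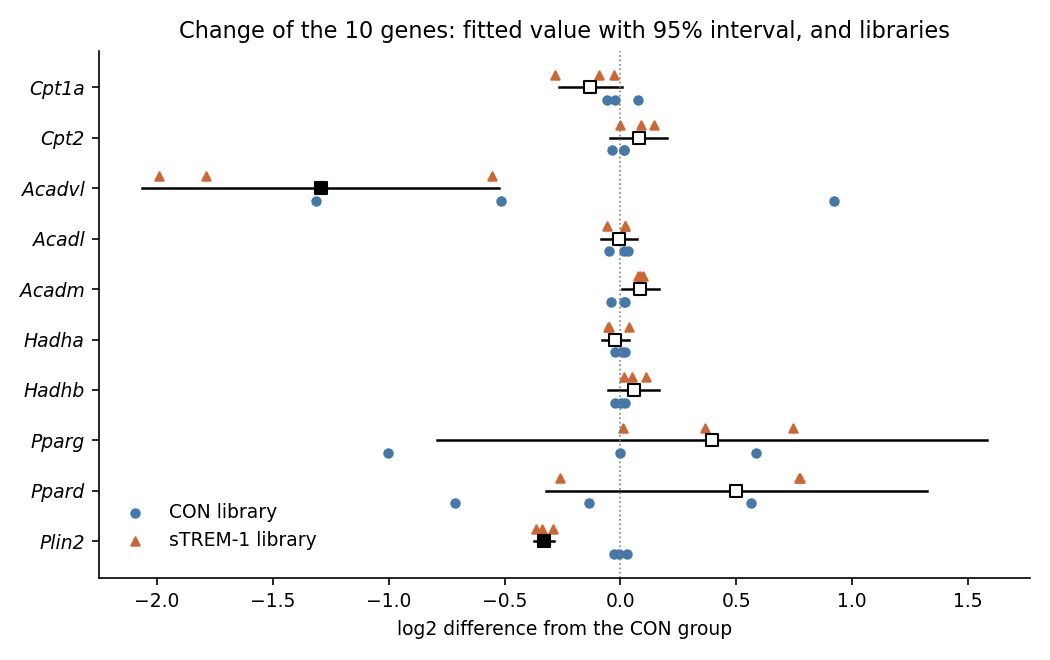
Change of each gene on a log2 scale relative to the CON mean. Squares are fitted log2 fold changes with 95% intervals, filled where the edgeR adjusted p is under 0.05, circles are CON libraries and triangles are sTREM-1 libraries. Plin2 and Acadvl are filled, at -0.33 and -1.29, the other enzymes lie within 0.13 of 0, and the intervals of Pparg and Ppard are wide.

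A further 7 gene lists place these genes in their pathway. Peroxisomes shorten very long fatty acids by a separate beta-oxidation, and 6 of the 12 tested genes of this list were higher and 0 were lower, with 6 not called, while 16.5% of all tested genes were higher. At an unadjusted p-value under 0.05 also 0 were lower, and DESeq2 gave 6 higher and 0 lower. The median log2 fold change of the list was 0.17. Acox3, a peroxisomal acyl-CoA oxidase, rose from 40.9, 41.8 and 44.5 CPM in the CON libraries to 68.0, 64.2 and 64.5 CPM (log2 fold change 0.63, standard error 0.04, edgeR adjusted p = 1.5e-12). Acaa1a, a peroxisomal thiolase whose reads could be split with the similar Acaa1b, rose 1.28-fold (edgeR adjusted p = 1.9e-06). The transporter Abcd2 and the thiolase Scp2, named after their values were seen, rose with folds of 1.36 and 1.14. For each of the 6 called genes, all sTREM-1 libraries lay above all CON libraries, as for 3002 of the 14120 tested genes. Because the 6 were picked by the test, this separation is no further support.

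Of the 19 other mitochondrial beta-oxidation enzymes tested, 4 were higher and 0 were lower, a share of 21.1% beside 30.5% of all tested genes. At an unadjusted p-value under 0.05 also 0 were lower, and DESeq2 gave 0 lower. The median log2 fold change was -0.01. Etfdh, which passes electrons from the dehydrogenases to ubiquinone, had 79.4, 78.0 and 74.5 CPM in the CON libraries and 86.7, 88.3 and 88.0 CPM after sTREM-1 (fold 1.13, edgeR adjusted p = 1.9e-04). Hadh, the short-chain hydroxyacyl-CoA dehydrogenase, rose from a mean of 26.5 to 31.7 CPM (edgeR adjusted p = 0.0012), and the thiolases Acaa2 and Acat1, named after their values were seen, rose 1.25-fold and 1.12-fold. Decr1, a reductase needed for unsaturated fatty acids, was listed at 0 in all 6 libraries.

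In the carnitine shuttle and malonyl-CoA list, 1 of 13 tested genes was higher and 2 were lower, 23.1% called beside 30.5% of all tested genes, and the median log2 fold change was 0.04. This share was below that of all tested genes. The 3 genes encode AMPK subunits, the kinase that relieves malonyl-CoA inhibition of CPT1. The catalytic subunit Prkaa2 fell from 142 ± 3.16 to 122 ± 2.36 CPM (SD, n = 3 each, edgeR adjusted p = 1.3e-06) and the regulatory subunit Prkab1 fell 0.869-fold (edgeR adjusted p = 8.6e-04), whereas the other catalytic subunit Prkaa1 rose 1.08-fold (edgeR adjusted p = 0.0071). The carnitine carrier Slc25a20, named after its values were seen, had 24.6, 23.8 and 26.5 CPM in the CON libraries and 23.6, 22.8 and 21.6 CPM after sTREM-1 (edgeR adjusted p = 0.11).

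Of the 13 tested genes for fatty acid uptake and activation, 4 were higher and 2 were lower, 46.2% called beside 30.5% of all tested genes, and the median log2 fold change was 0.04. Lpl, which releases fatty acids from lipoproteins, rose from 2610 ± 103 to 3345 ± 92.0 CPM (SD, n = 3 each, log2 fold change 0.36, edgeR adjusted p = 1.3e-13), and the acyl-CoA synthetase Acsl5 rose 1.31-fold (edgeR adjusted p = 6.4e-11). Fabp4, a fatty acid binding protein and PPAR target, fell from 388 ± 2.51 to 347 ± 10.5 CPM (SD, n = 3 each, edgeR adjusted p = 6.8e-06), and the transporter Slc27a1 fell 0.946-fold (edgeR adjusted p = 0.0094). Without CON replicate 1, Slc27a1 no longer passed, which left 1 lower gene. Cd36, the fatty acid receptor, had 342 to 367 CPM in the 6 libraries (edgeR adjusted p = 0.14).

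Of 20 other known PPAR targets, 10 were tested and 8 were at 0 in all libraries, among them Angptl4 and Pdk4. Of those tested, 5 were higher and 1, Fabp4, was lower, beside 16.5% higher and 14.1% lower of all tested genes, and the median log2 fold change was 0.12. Lpl, described above, and Me1, a cytosolic malic enzyme with a fold of 1.32 (edgeR adjusted p = 3.5e-12), had the smallest p-values. Without CON replicate 2 there were 3 lower genes, as Gk and Cd36 then passed, and without sTREM-1 replicate 2 there were 2, as Gk then passed.

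Among the PPAR partners and coregulators, 4 of 16 tested genes were higher and 4 were lower, 8 called in all, beside 30.5% of all tested genes, and the median log2 fold change was -0.02. The corepressor Ncor1 and the coactivator Lpin1 rose 1.16-fold and 1.31-fold (edgeR adjusted p = 1.8e-06 and 3.6e-06), whereas the coactivators Ncoa2 and Ppargc1b fell 0.916-fold and 0.864-fold (edgeR adjusted p = 0.0047 and 0.0060). The RXR partner Rxra, named after its values were seen, had 92.2, 98.3 and 102 CPM in the CON libraries and 91.7, 90.4 and 91.6 CPM after sTREM-1 (edgeR adjusted p = 0.041), and lost the call when any library but CON replicate 1 was left out (adjusted p from 0.065 to 0.25). There were 2 higher genes without CON replicate 2 or sTREM-1 replicate 1, and 2 lower genes without CON replicate 2, CON replicate 3 or sTREM-1 replicate 3.

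Among the droplet proteins and lipases related to Plin2, 3 of 11 tested genes were higher and 3 were lower, 54.5% called beside 30.5% of all tested genes, and the median log2 fold change was 0.01. Pnpla2, the main triglyceride lipase, rose from 40.9 ± 1.54 to 49.2 ± 1.35 CPM (SD, n = 3 each, edgeR adjusted p = 2.9e-05), and Bscl2, which encodes seipin of droplet formation, rose by a log2 fold change of 0.26 (edgeR adjusted p = 0.0083) but not without CON replicate 2 (adjusted p = 0.084). Dgat2, which makes triglyceride, fell from its CON level of 18.2 ± 1.03 CPM (SD, n = 3) by a fold of 0.768 (edgeR adjusted p = 2.4e-04), and the droplet hydrolase Ldah fell 0.917-fold (edgeR adjusted p = 0.0049). Plin1, Plin4 and Plin5 were not tested, the last 2 being at 0 in every library.

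**Figure D4:**
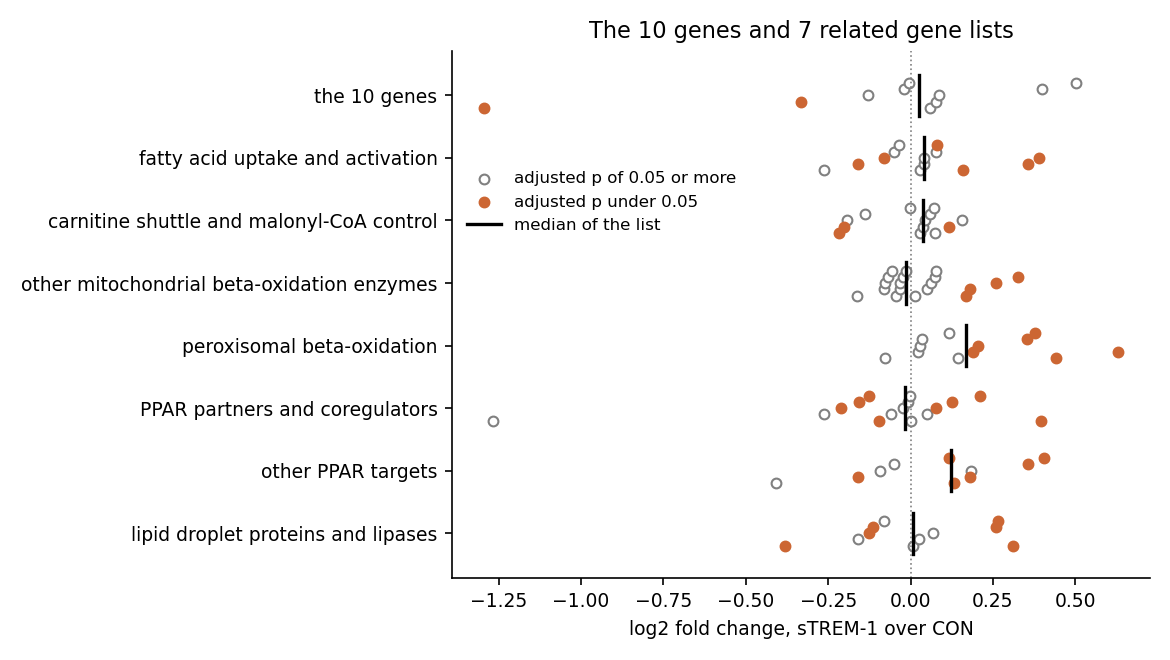
Log2 fold change of each tested gene of the 10 genes and of 7 related lists, with points filled where the edgeR adjusted p is under 0.05 and a black bar at the median of each list. The peroxisomal list has 6 filled points, all to the right of 0 and a median of 0.17, whereas most points of the mitochondrial lists are open and near 0.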

How the data were processed

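Per the submitters' processing notes and the methods, reads were aligned with HISAT2 2.0.4, quantified with RSEM and compared with edgeR. The notes name the human builds hg19 and GRCh38, while the table holds mouse symbols, so the build used is uncertain. The strand setting and annotation are not given in the sources used here. The deposited values are whole-number counts for each gene symbol, without normalization.

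After filterByExpr (minimum count 10), 14120 genes remained. Libraries were TMM-scaled, the groups were compared by a quasi-likelihood F-test (edgeR 4.0.16, R 4.3.3) without covariates, and p-values were adjusted over these genes after Benjamini and Hochberg. The procedure was tested on simulated data, drawn from the fitted levels and spread of these counts, which does not check the calls reported here. Standard errors and 95% intervals were derived from each F value and its log2 fold change. The common biological coefficient of variation was 3.99%. It is the spread between libraries of a group beyond counting error, pooled over the tested genes. Positions and exon lengths come from GENCODE M21 (GRCm38), promoter windows from RefSeq (GRCm38.p6).

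The 10 genes and the 7 lists were chosen with earlier results of these data known. Named genes are the 10 and, per list, the 2 risen and 2 fallen genes of smallest p among those with adjusted p under 0.05. All other genes named in the text, such as Plin3, Cd36, Gk, Decr1, Ppara, Angptl4 and Pdk4, were chosen after their values were seen. Alternatives were RLE scaling, other count filters, DESeq2 1.42.0, a replicate block, thinning to the smallest total and leaving out each library. Some genes of the lists enter the counts but are not reported here by name.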

Additional observations from a re-analysis of the deposited data

How the results depend on the processing

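Plin2 was lower at an adjusted p under 0.05 in all 13 fits, with log2 fold changes from -0.35 to -0.32. Acadvl lost the call with DESeq2 (log2 fold change -1.30), and across the fits that each left out 1 library its value ran from -1.89 to -0.44, so that the number of the 10 genes lower was 1 with DESeq2 and from 1 to 2 with a library left out. Over all tested genes, 1891 were lower with DESeq2 and from 1643 to 1810 with a library left out. With an adjusted p under 0.01 as the threshold, 2 of the 10 were likewise lower. At that threshold, 3031 of the 14120 tested genes passed in either direction. Acadl, near 0 in every fit, ran from -0.032 to 0.017 when a library was left out. The other PPAR targets had 2 lower genes with RLE scaling, with at least 10 counts in every library, with DESeq2, with the replicate block and after thinning, as Gk then passed, and from 1 to 3 with a library left out. Leaving out a library gave from 1 to 3 lower genes for uptake and activation, from 2 to 4 higher and from 2 to 4 lower genes for PPAR partners. For droplet proteins and lipases, the same fits gave from 2 to 3 higher and from 2 to 3 lower genes. Without a filter on low counts, 2 genes of that list were lower, as Abhd5 lost the call. The cause was not tested. The deviations of libraries of equal number had r across genes of -0.018, -0.034 and -0.014 for replicates 1, 2 and 3. Whether libraries of equal number shared a culture or batch was not tested. With the replicate block, 0 of the 10 genes were higher and 2 lower, against 2474 higher and 2139 lower of all tested genes. An adjusted p was available for Pparg in 10 of the 13 fits and for Ppard in 12. DESeq2 gave none for either gene, and Pparg also failed a count filter elsewhere. Both receptors had few counts, and the cause of this was not tested.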
